A study of Mus musculus with 8 samples.

Results

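The regions described here are 10 windows of the mouse genome, build mm9, each named after the imprinted gene it was set around: Nnat, Plagl1, Peg3, Snrpn, H19, Kcnq1ot1, Mest, Peg10, Grb10 and Igf2r. They were chosen as fixed intervals of 50 to 200 kb, 880 kb in all, and every peak with at least 1 bp inside a window was taken. The windows held 51 of the 38359 peaks in the 5 deposited lists. The lists come from chromatin immunoprecipitation with sequencing (ChIP-seq) of mouse embryonic fibroblasts (MEF). KAP1 was mapped in wild-type (WT) cells, and the histone marks H3K9me3 and H4K20me3 were mapped in WT cells and in cells labelled KAP1 KO. The labels give no allele, method of knockout, age or strain. Each list comes from 1 library, so differences have no replicate check and no test between genotypes could be run. The 3 input libraries were not analysed here, and loss of KAP1 from the KO cells cannot be read from these lists, since the KAP1 library is from WT cells alone. Peak lists carry no expression values, so the cell type was not checked against markers. The windows had been named as imprinting control regions bound by KAP1. A KAP1 peak was called in 6 of them, and none in the windows of Peg3, Snrpn, H19 and Kcnq1ot1. Whether these peaks lie on the control regions themselves was not tested.

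Imprinted genes are expressed mainly from the copy inherited from 1 parent. Their control regions carry DNA methylation on 1 parental copy, on the paternal one at H19 and on the maternal one at the other loci named here. On the methylated copy, the KRAB zinc finger protein ZFP57 binds the hexamer TGCCGC and brings in KAP1 (TRIM28). KAP1 in turn recruits the methyltransferase SETDB1, which makes H3K9me3, and H4K20me3 is a further heterochromatin mark often placed where H3K9me3 and HP1 are found. In the RefSeq annotation, Nnat lies inside Blcap, Kcnq1ot1 inside Kcnq1 and Snrpn inside Snhg14, while Igf2r overlaps its antisense RNA Airn.

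The promoter sequences of the members were searched for this hexamer because it is the letters that the KAP1 recruiter at imprinted loci reads. RefSeq promoters of build GRCm38.p6, from 250 bases before to 50 bases after each transcript start, were matched by symbol for 8 of the 10 members, 14 starts in all. TGCCGC, on either strand and with no other motif searched, was found at 6 starts of 5 members, Nnat, Plagl1, Mest, Grb10 and Snrpn. Of all 32851 promoters in the table, 11.6% held it. A pair of Mest starts lies 3 bases apart and shares both matches. The promoters of Peg3, Kcnq1ot1 and Igf2r did not hold these letters. Only promoters were searched and control regions were not located, so neither a match nor its absence can be assigned to a control region. Each match is shown in 30 bases, 5′ to 3′ on the strand of the gene, with the match in capitals. All 6 read GCGGCA, the reverse complement of the hexamer.
Nnat (chr2:157560093-157560122, plus strand): gccaccggggctGCGGCAttgcgcccagca
Plagl1 (chr10:13090730-13090759, plus strand): ctggcgtgttgcGCGGCAaagcccacggca
Mest, upstream match (chr6:30737800-30737829, plus strand): ccttgcccGCGGCAttaacacatgggaagg
Mest, downstream match (chr6:30737971-30738000, plus strand): aggaggggcgctGCGGCAggatgggcgggt
Grb10 (chr11:12037379-12037408, minus strand): gggtgcggggagGCGGCAggaagggaaggg
Snrpn (chr7:60005184-60005213, minus strand): gacccctgcattGCGGCAaaaatgtgcgca

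For Plagl1 and Mest, where KAP1 peaks were among the strongest of the genome and the match lies before the start, the 250 bases before the start are given in full. The peaks are in mm9 and these sequences in GRCm38.p6, so the matches were not placed on the peaks, and ZFP57 was not measured.
Plagl1 (chr10:13090582-13090831, plus strand): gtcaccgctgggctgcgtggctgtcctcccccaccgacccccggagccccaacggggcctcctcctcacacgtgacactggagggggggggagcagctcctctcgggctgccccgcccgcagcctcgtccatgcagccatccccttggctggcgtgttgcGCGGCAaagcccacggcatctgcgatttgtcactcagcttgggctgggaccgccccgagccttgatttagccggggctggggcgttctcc
Mest (chr6:30737800-30738049, plus strand): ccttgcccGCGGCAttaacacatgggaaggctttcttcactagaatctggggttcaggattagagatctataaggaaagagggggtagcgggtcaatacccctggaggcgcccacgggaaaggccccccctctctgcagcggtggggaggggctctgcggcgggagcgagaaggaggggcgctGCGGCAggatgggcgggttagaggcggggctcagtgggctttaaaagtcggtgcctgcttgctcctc

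KAP1 and H3K9me3 peaks were found in most windows in WT cells, and H3K9me3 peaks in none in KO cells. KAP1 was called in 6 of 10 windows, Nnat, Plagl1, Mest, Peg10, Grb10 and Igf2r, while 1.35% of the 25789 tiles of 100 kb along chromosomes 1 to 19 and X held a KAP1 peak. WT H3K9me3 was called in the same 6 windows and at H19, 7 of 10, against 28.1% of tiles. WT H4K20me3 was called in 4 of 10, Nnat, Peg10, Grb10 and Igf2r, against 25.1% of tiles. In KO cells, H3K9me3 was called in 0 of 10 windows, against 6.35% of tiles, and H4K20me3 in 3 of 10, Nnat, Grb10 and Igf2r, against 22.1%. Set against the tiles, the windows held KAP1 peaks far more often, and KO H4K20me3 peaks about as often. For KO H3K9me3, the exact 95% Clopper-Pearson interval of 0 of 10 windows reached 30.8%. The absence of KO H3K9me3 peaks from the windows thus cannot be told from the tile share of 6.35%. With the windows widened by 50 kb on both sides, 5 held a KO H4K20me3 peak, H19 and Mest being added, and 1 (Snrpn) a KO H3K9me3 peak. The windows were picked with KAP1 results known, so these shares are descriptions.

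**Figure D1:**
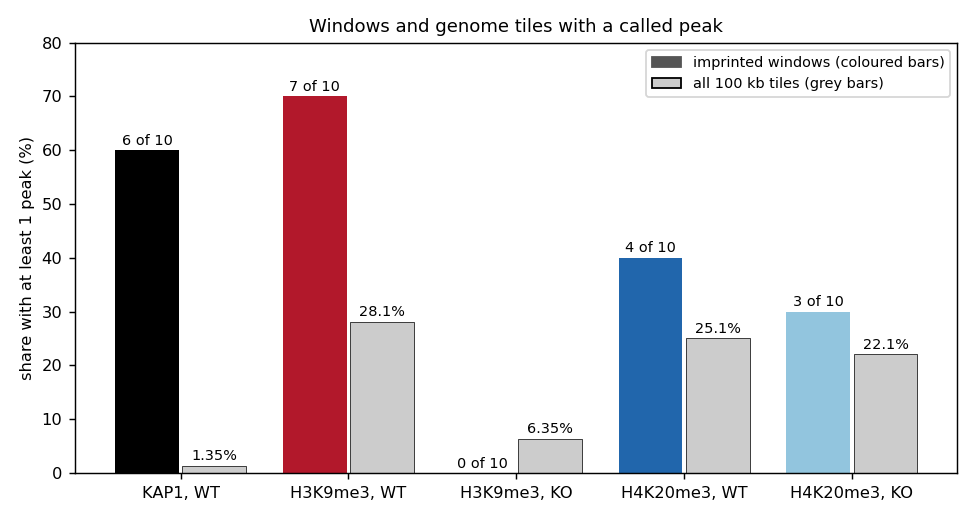
Share of regions with at least 1 called peak in percent (y axis) for the 5 lists (x axis); coloured bars are the 10 windows with their counts printed above, grey bars all 25789 tiles of 100 kb. KAP1 was called in 6 of 10 windows and 1.35% of tiles, and KO H3K9me3 in 0 of 10 windows and 6.35% of tiles.

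The KAP1 peaks at imprinted loci were mostly among the strongest of the whole list. Each peak carries the authors' own score, which is used for ranks, medians and cuts within a list. The cut at 100 was applied alike to all lists, though their median scores ran from 63.0 (KO H3K9me3) to 197 (KO H4K20me3). The 7 KAP1 peaks of the windows had a median score of 1120, and the median of all 372 KAP1 peaks was 92.2. Nnat ranked 3rd with a score of 2112, Plagl1 5th with 1596, Mest 9th with 1165, Grb10 12th with 1122 and the stronger Igf2r peak 17th with 793. Thus 5 of the 20 highest-scoring KAP1 peaks lay in these windows. The windows were picked with KAP1 results known, so these ranks are descriptions too. The other members were weak, Peg10 at rank 219 with a score of 78 and the second Igf2r peak at rank 280 with 61. The lowest score in every list was 50. Mest had the third longest KAP1 peak of the list, at 1864 bp, and the Peg10 peak spanned 439 bp, below the list's median of 491 bp.

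**Figure D2:**
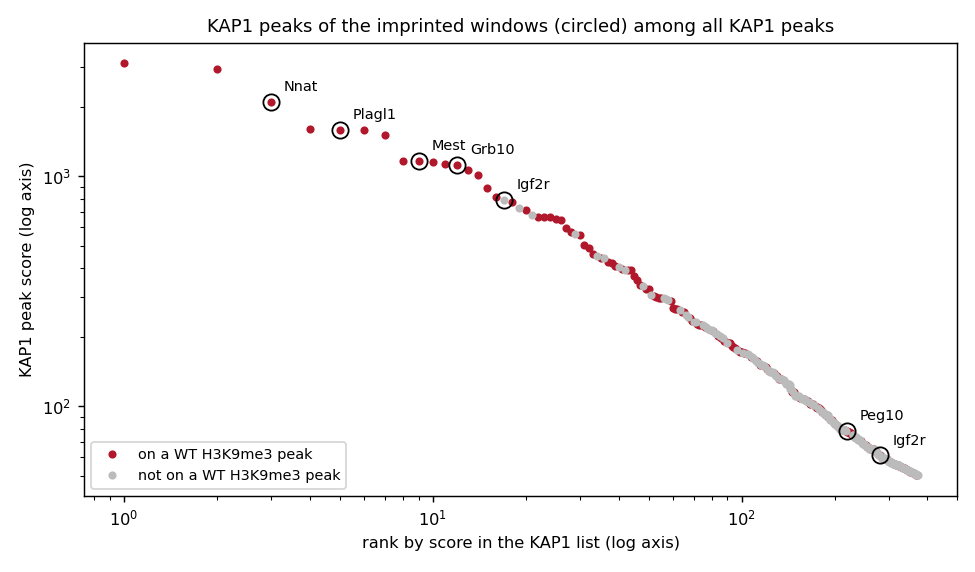
Score of each of the 372 KAP1 peaks (y axis, log) against its rank in the list (x axis, log); red points overlap a WT H3K9me3 peak, grey points do not, and circles mark the 7 peaks of the imprinted windows. Nnat, Plagl1, Mest and Grb10 rank 3rd to 12th, and Peg10 and the second Igf2r peak lie in the lower part of the list.

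The KAP1 peaks of these windows were compared with both histone marks in WT cells. Of the 7 KAP1 peaks, 6 overlapped a WT H3K9me3 peak, and 44.4% of all KAP1 peaks did. The exception was the stronger Igf2r peak, 799 bp from the nearest H3K9me3 peak. WT H4K20me3 overlapped 3 of the 7, against 16.7% of all KAP1 peaks. These were the Nnat peak and both Igf2r peaks. The shares over the whole list include many weak peaks. Among the 14 KAP1 peaks with a score of at least 1000, 14 lay on H3K9me3 and 7 on H4K20me3. Of the 4 such peaks in the windows, Nnat lay on both marks, and Plagl1, Mest and Grb10 on H3K9me3 without H4K20me3. The 26 KAP1 peaks outside the windows with a score of at least 500 lay on H3K9me3 in 23 cases and on H4K20me3 in 14, 88.5% and 53.8%. With a score of at least 100 required, 4 of 5 KAP1 peaks of the windows lay on H3K9me3 and 2 of 5 on H4K20me3. All 5 scored at least 500. Overlap with either mark was thus no more common at the strong KAP1 peaks of the windows than at those elsewhere. When 50% or more of the KAP1 peak had to be covered, 4 of 7 lay on H3K9me3 and 3 of 7 on H4K20me3. The list shares above count any overlap of at least 1 bp, so they are no background for these counts.

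Nnat, the gene of a small membrane proteolipid of the brain, had the widest and strongest block of both marks. The window runs from 157.36 to 157.41 Mb of chromosome 2. Its KAP1 peak spanned 157385094 to 157386547, inside a single H3K9me3 peak of 11407 bp from 157379229 to 157390635. That H3K9me3 peak had a score of 3100, the highest value of the list, which 1 other peak shared, and it ranked 6th by length. It reached 5865 bp to the left of the KAP1 peak and 4088 bp to the right. H4K20me3 was called in 3 pieces over this peak: 157379463 to 157386074 with a score of 1834, 157386753 to 157388098 with 621, and 157388188 to 157392233 with 1324. A weak H4K20me3 peak at 157393297 to 157393859, score 72, lay 2661 bp beyond its end. The first and the third piece ranked 43rd and 91st of 11295. Together the 3 pieces covered 91.2% of the H3K9me3 peak.

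In KO cells this block was reduced to 1 H4K20me3 peak at its edge. No H3K9me3 peak was called in the Nnat window, and the nearest KO H3K9me3 peak lay 1500 kb from it. The KO H4K20me3 peak spanned 157391322 to 157392268, with a score of 254. It began 686 bp beyond the end of the WT H3K9me3 peak and 4.77 kb from the KAP1 peak. It overlapped 912 bp of the third WT piece, on the part of that piece outside H3K9me3, and none of the 10406 bp that carried both marks in WT lay in a KO peak.

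Plagl1 and Mest had strong KAP1 peaks on H3K9me3 with no H4K20me3 in either genotype. Plagl1 encodes a zinc finger transcription factor that restrains growth, and Mest a protein of the hydrolase fold. At Plagl1 (chromosome 10, 12.78 to 12.86 Mb) the KAP1 peak at 12810228 to 12811269 shared 944 bp with an H3K9me3 peak at 12809712 to 12811171, score 382 and rank 360 of 14596. H3K9me3 peaks flanked it at 12812136 to 12812651 with a score of 101 and at 12808628 to 12809033 with 55. A further one, at 12790516 to 12790980 with 68, lay 19.2 kb from the KAP1 peak. At Mest (chromosome 6, 30.67 to 30.72 Mb) the KAP1 peak at 30687141 to 30689004 lay whole inside an H3K9me3 peak at 30686228 to 30689031, score 757 and rank 86. Weaker H3K9me3 peaks sat on both sides of it, at 30689860 to 30690539 with a score of 125 and at 30685612 to 30685905 with 50. The nearest WT H4K20me3 peak was 81.2 kb from the Plagl1 KAP1 peak and 43.3 kb from the Mest one. In KO cells neither window held a peak of either mark.

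Grb10, a growth-restraining adaptor of insulin and IGF receptors, combined a KAP1 site on fragmented H3K9me3 with a separate H4K20me3 peak. In its window (chromosome 11, 11.82 to 11.95 Mb) the KAP1 peak at 11925763 to 11926662 bridged a gap of 108 bp between H3K9me3 peaks at 11925364 to 11926367, score 211, and 11926476 to 11927462, score 256. The third strongest, at 11923964 to 11924513, had a score of 94, and 3 more had scores of 56 to 59. Of the 6, 5 formed a stretch of 4216 bp. H4K20me3 lay elsewhere, at 11936166 to 11937274 with a score of 242, 9.5 kb from the KAP1 peak. It was called again in KO cells, at 11936473 to 11937330 with a score of 195, and the H3K9me3 peaks were not.

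Peg10, an imprinted gene derived from a retrotransposon, had peaks of all 3 kinds in WT cells. Those of KAP1 and H4K20me3 were below the median score of their lists. The window covers 4.68 to 4.73 Mb of chromosome 6. The KAP1 peak at 4697686 to 4698124 shared 203 bp with an H3K9me3 peak at 4697922 to 4698704, score 124. An H4K20me3 peak at 4696707 to 4697169, score 79, lay 516 bp from the KAP1 peak and overlapped neither. By score, the H3K9me3 peak was above 78.5% of its list, the KAP1 peak above 41.1% and the H4K20me3 peak above 20.2%. With a score of at least 100 required, only the H3K9me3 peak remained. In KO cells the window was empty, and the nearest H4K20me3 peak was 128 kb from it.

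Igf2r, the receptor that clears IGF2, lies in the largest window, 12.86 to 13.06 Mb of chromosome 17, and its KAP1 and H3K9me3 peaks were largely apart. The stronger KAP1 peak, at 12934369 to 12935618, shared 760 bp with an H4K20me3 peak at 12934168 to 12935128, score 220, and touched no H3K9me3 peak. The weaker one, at 12962055 to 12962479, lay whole on the strongest H4K20me3 peak of the window, 12961815 to 12963087 with a score of 401, and shared 122 bp with an H3K9me3 peak of score 57. The third H4K20me3 peak by score lay at 12985195 to 12985835 with 119, and 3 others had scores of 58 to 114. H3K9me3 was spread over 13 peaks with scores of 51 to 148. Of these, 7 formed a stretch of 8822 bp from 13011966 to 13020787, 49.5 kb from the nearest KAP1 peak. It held the 3 highest-scoring ones, 13013746 to 13014467 with 148, 13015340 to 13016083 with 146 and 13020061 to 13020787 with 143. In KO cells, 1 peak was called in the window, H4K20me3 at 12934298 to 12934762 with a score of 88, on the stronger KAP1 position.

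**Figure D3:**
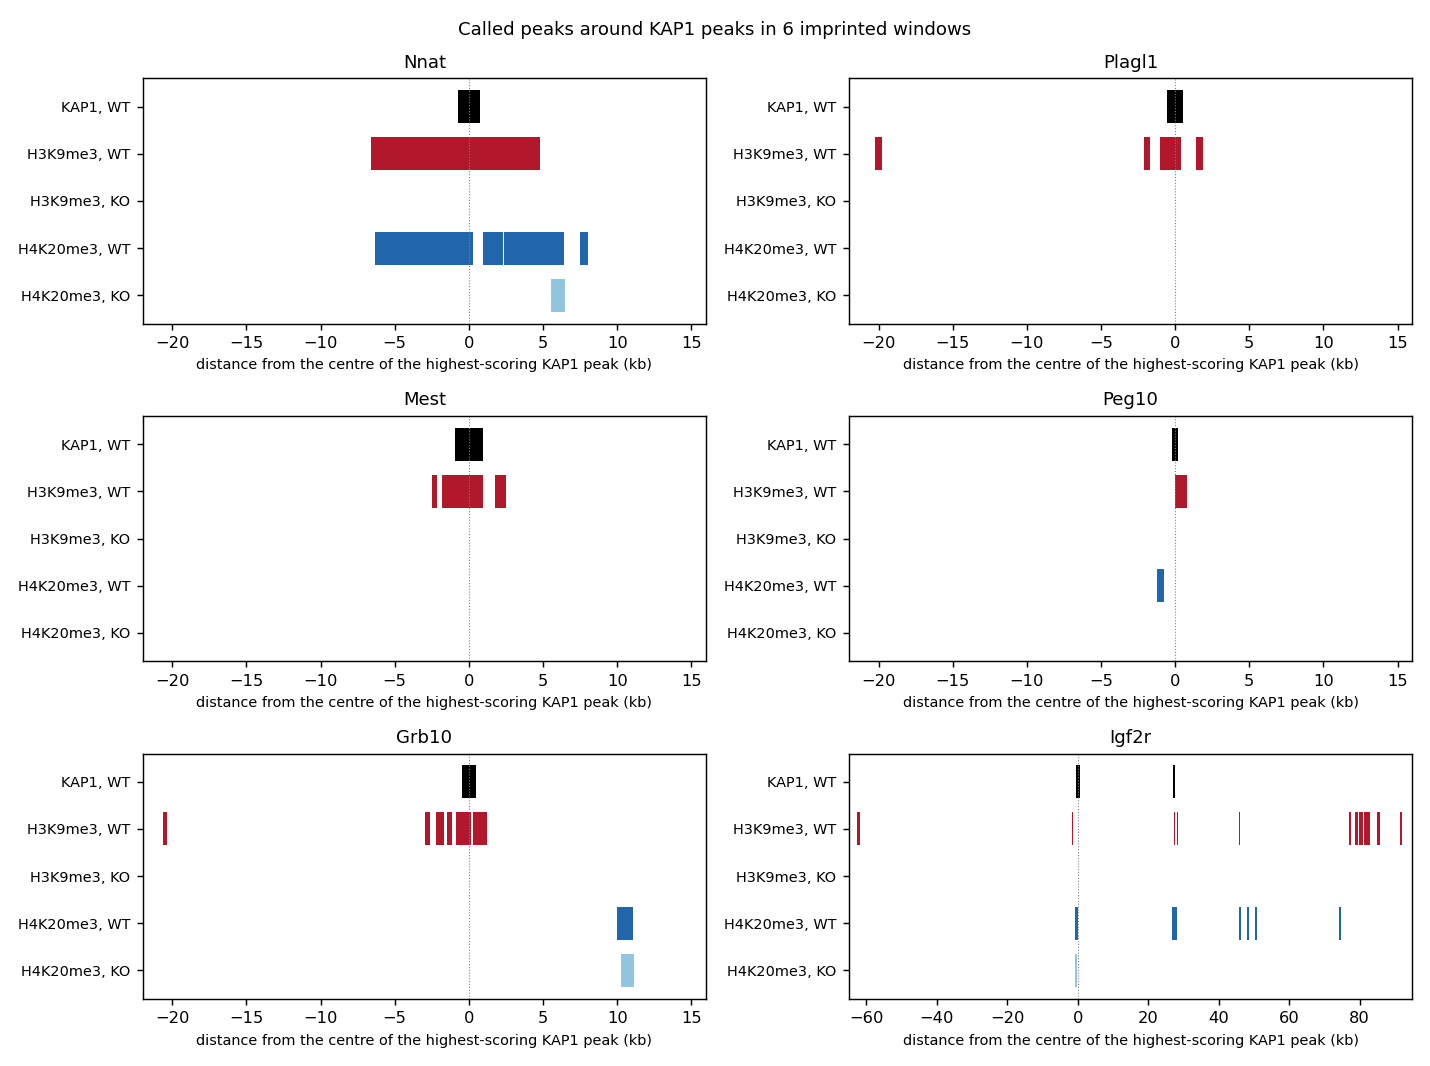
Called peaks of the 5 lists (rows, coloured bars drawn to their length) in the 6 windows with a KAP1 peak, by distance in kb from the centre of the window's highest-scoring KAP1 peak (x axis; the Igf2r panel spans a wider range). The KO H3K9me3 row is empty in all 6 panels, and the 3 KO H4K20me3 peaks lie outside WT H3K9me3 peaks.

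At the H19, Peg3, Snrpn and Kcnq1ot1 windows, all on chromosome 7, KAP1 was not called. H19 and Kcnq1ot1 are long noncoding RNAs, Peg3 encodes a zinc finger protein and Snrpn a splicing protein. The H19 window (149.74 to 149.80 Mb) held 1 H3K9me3 peak in WT cells, at 149767122 to 149767474, with a score of 56 and above 22.3% of its list. From the edge of the H19 window, the nearest KAP1 peak was 64.4 kb away and the nearest KO H4K20me3 peak 20.5 kb. The windows of Peg3 (6.63 to 6.71 Mb), Snrpn (67.10 to 67.17 Mb) and Kcnq1ot1 (150.39 to 150.50 Mb) held no peak in any list. The nearest KAP1 peak lay 488 kb from the Peg3 window, 58.3 kb from Snrpn and 525 kb from Kcnq1ot1. For WT H3K9me3 these distances were 248, 59.7 and 88.9 kb, and for WT H4K20me3 they were 414, 615 and 134 kb. The KO H3K9me3 list had its closest peaks 605, 49.6 and 9490 kb away, and the KO H4K20me3 list 521, 75.4 and 134 kb. Chromosome 7 held more KAP1 peaks than any other of chromosomes 1 to 19 and X, 33 of 372. WT H3K9me3 was sparser on it, with a peak in 14.4% of its tiles against 28.1% of all. An empty window means that no peak was called, and whether the mark lay under the threshold of these libraries was not tested.

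**Figure D4:**
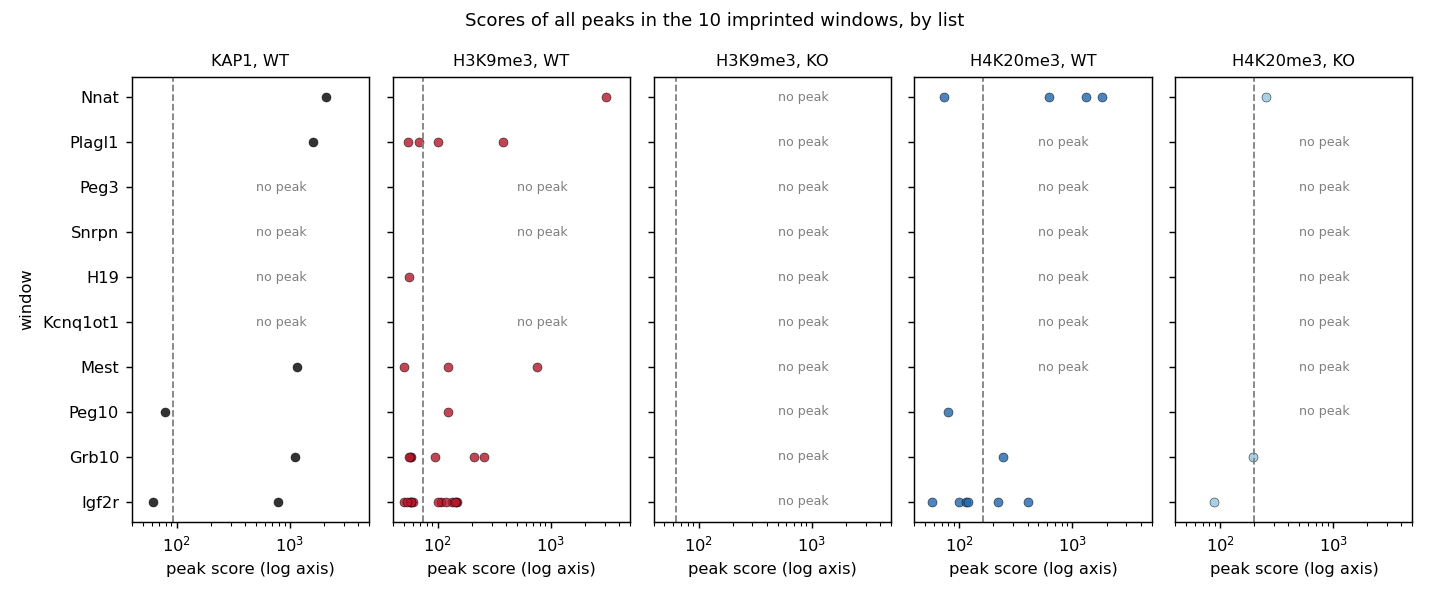
Score of each peak (x axis, log) in each of the 10 windows (y axis), 1 panel per list; each point is a peak, and dashed lines mark the median score of the whole list. KAP1 points of 5 windows lie far to the right of the median, and the KO H3K9me3 panel has no point.

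Between genotypes, H3K9me3 was called at none of its WT positions in these windows. A WT peak was counted as kept when a KO peak of the same mark overlapped it by at least 1 bp. Of 29 WT H3K9me3 peaks, 0 were kept (exact 95% Clopper-Pearson interval up to 11.9%; 3 counts of 29, the limit used for a count of 0, are 10.3%), and over the whole list 3.1% were kept. A share of 0 among 29 is therefore near the background. The 29 peaks share windows and are not independent, and with peaks within 5 kb merged, 0 of 14 were kept. The strong members were no exception: 5 had a score of at least 200 and 0 of them were kept, while 8.43% of the 1269 such peaks in the list were. Of the 7 H3K9me3 peaks on a KAP1 peak, 0 were kept, and of all 189 on KAP1, 13 were. The 22 off KAP1 were not kept either, the 7 of the Igf2r stretch included, and of all 14407 off KAP1, 439 (3.05%) were. The KO list is shorter, 3176 peaks against 14596. Among the 3176 highest-scoring WT peaks, 11 lay in the windows and 0 were kept. The share kept among all 3176 is not given here, so this 0 has no background of its own.

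H4K20me3 was kept at 3 of 12 WT peaks (25.0%, exact 95% interval 5.49 to 57.2%), 1 each at Nnat, Grb10 and Igf2r, and over the whole list 65.6% were kept. The interval counts peaks, which share windows, and covers counting error only. When a KO peak had to cover at least 50% of the WT peak, only the Grb10 peak was kept. The 65.6% of the whole list is at 1 bp, and no list share at the 50% rule is given here. In windows widened by 50 kb, 5 of 15 were kept. Of the WT H4K20me3 peaks on a KAP1 peak, 1 of 3 in the windows was kept, and 17 of 66 (25.8%) in the whole list. The Nnat peak kept was the third piece, score 1324, whose KO overlap lay off H3K9me3. The 9 not kept were the Nnat pieces of score 1834, 621 and 72, the Peg10 peak and 5 at Igf2r. By peaks, 1 of the 5 on WT H3K9me3 was kept (20.0%) and 2 of the 7 off it (28.6%), while over the whole list 7.52% and 72.5% were. By sequence length, 11043 bp of WT H4K20me3 peaks in the windows lay on WT H3K9me3, of which 0 bp lay in KO peaks. A further 7598 bp lay off H3K9me3, of which 2179 bp (28.7%) lay in KO peaks. Over the whole list these shares were 8.12% and 67.0%. Nnat supplied 10406 of the 11043 bp, and 637 bp are left without it, all at Igf2r and with 0 bp in KO peaks.

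Off H3K9me3, the H4K20me3 peaks kept were those with the higher scores. The 2 peaks with a score of at least 150, at Grb10 and Igf2r, were both kept, and in the whole list 92.1% of such peaks were. The 5 with a lower score, 58 to 119, were not kept, and in the list 48.5% of such peaks were. The cut at 150 was set after the scores had been seen.

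The median score of the windows' peaks was close to that of the whole list for H4K20me3 and above it for H3K9me3. The 29 WT H3K9me3 peaks had scores from 50.4 to 3100 with a median of 101, and 16 of them were above the list's median of 74.8. The 12 WT H4K20me3 peaks had a median of 170 against 163 in the list, and the 3 KO ones 195 against 197. By length, H3K9me3 peaks covered 22.8% of the Nnat window, 7.56% of Mest and 0.588 to 3.56% of the 5 others with a peak. H4K20me3 peaks covered 25.1% of the Nnat window in WT and 1.89% in KO.

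The overlap of both histone marks in WT cells was counted from either side. Of the 29 WT H3K9me3 peaks, 3 overlapped a WT H4K20me3 peak (10.3%), and over the whole list 8.69% did. These were the Nnat peak and 2 weak peaks at Igf2r, with scores of 57 and 58, so with a score of at least 100 required only Nnat remained, 1 of 15. When H4K20me3 peaks within 1 kb were also counted, the number was 6 of 29. From the other side, 5 of the 12 WT H4K20me3 peaks overlapped H3K9me3, 3 at Nnat and 2 at Igf2r, and over the whole list 10.6% did. Without Nnat, 2 of 8 did.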

How the data were processed

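Peak lists of 5 ChIP-seq libraries were used, each the only one of its group. The deposited score of each peak is the authors' value, with its scale not stated. The submitters' processing notes name build mm9, MACS 1.4, Bowtie2 2.2.1 and CASAVA 1.82 with no roles. The KAP1 header sets 1 WT KAP1 library against 1 WT MEF library. No source used here gives the controls of the histone calls or the read depths. Positions are printed counting from 1.

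Overlaps were counted in Python 3.11.15 with numpy 2.4.6, tested on simulated lists, and equalled bedtools 2.31.1 for 5 of 5 list pairs. Intervals are exact Clopper-Pearson (scipy 1.17.1), and figures were drawn with matplotlib 3.10.9. Tiles of 100 kb cover each chromosome between its outermost peaks in any list. In a window, the 3 highest-scoring peaks of each list are named. Score classes (at least 150, 200, 500 or 1000) were set after values were seen. The windows and gene names were chosen with earlier results of these data known. Gene names and promoters come from RefSeq GRCm38.p6, and no annotation of mm9 was used, so exons and introns were not assigned and further imprinted loci were not analysed here. The alternatives were a score of at least 100, other overlap and window rules, merged peaks, equal list sizes and other tile sizes.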

Additional observations from a re-analysis of the deposited data

How the results depend on the processing

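Each count over the windows was recomputed with peaks of a score of at least 100, with at least 50% of a peak inside the window, with windows widened by 50 kb, with other overlap rules, with peaks within 5 kb merged and with equal numbers of highest-scoring peaks. Of 51 such values, 45 were within 1.5 times the reported count and 6 were not. This compares counts and not shares, the totals differ between settings, and a 0 that stayed 0 counts as within. With peaks within 5 kb merged, 3 of 7 WT H4K20me3 peaks were kept, against 3 of 12. Likewise, 3 of 14 merged WT H3K9me3 peaks lay on H4K20me3, against 3 of 29. Both count as within, though the shares are larger. With widened windows, 1 window (Snrpn) held a KO H3K9me3 peak, 5 held a KO H4K20me3 peak and 5 of 15 WT H4K20me3 peaks were kept. With at least 50% of the peak overlapped, 1 of 12 was kept. WT H3K9me3 peaks on H4K20me3 numbered 1 of 15 with a score of at least 100 and 6 of 29 when peaks within 1 kb were counted. WT H3K9me3 peaks of the windows kept in KO were 0 under all 7 alternatives run. The share of tiles with a peak depends on the tile, for KAP1 0.688% at 50 kb and 2.62% at 200 kb, and for WT H3K9me3 16.4% and 44.4%. The files give no reads, so depth is unknown.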
